A study of Mus musculus with 14 samples.

Results

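Peroxisome proliferator-activated receptors (PPARs) are nuclear receptors that bind fatty acids, pair with a retinoid X receptor (RXR) and switch on genes that take up, store and burn fat. Skeletal muscle relies on them when it turns from glucose to fatty acids as fuel, as in fasting or on a diet rich in fat, and Ppard encodes the form most tied to this tissue. The account covers 9 genes of this response, chosen by name from the 54532 genes of the count table: Ppard itself, Pdk4, Cpt1a, Acot1, Acot2, Ucp2, Ucp3, Plin2 and Plin5. All 9 were in the table, and all 9 passed the filter on low counts that left 15458 genes to test. Pdk4 encodes a kinase that shuts off pyruvate dehydrogenase and so spares glucose. Cpt1a carries fatty acids toward mitochondrial oxidation, Acot1 and Acot2 release free fatty acids from acyl-CoA in the cytosol and in mitochondria, Ucp2 and Ucp3 are carriers of the inner mitochondrial membrane, and Plin2 and Plin5 coat lipid droplets.

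The libraries came from skeletal muscle, named by the study as soleus and gastrocnemius, of male FVB/N mice. EC-Myc OE mice (OE) carried a human c-Myc transgene under the tetracycline operator together with a transactivator driven by the Cdh5 promoter, which directs it to endothelial cells and not to muscle fibres. Control littermates (CT) carried the transgene without the transactivator, and c-Myc was induced between 4 and 6 weeks of age by withdrawal of doxycycline feed. Mice then ate control diet (CTD) or a high-fat western diet (WD) for 20 weeks by the sample labels, although the study's text does not give the same time throughout, and polyadenylated RNA was sequenced. The groups held 3 libraries of CT-CTD, 3 of CT-WD, 4 of OE-CTD and 4 of OE-WD, and libraries are named by group and replicate number. The study's figure legend gives 3 for control diet and 4 for western diet. The labels would meet these sizes if the names CT-WD and OE-CTD were exchanged, and the labels were kept. No label gives the muscle of origin of a library, the hour of collection or whether the mice had been fed. Transgene reads were not analysed here. The mouse gene Myc differed by a log2 fold change of 0.16 between OE-CTD and CT-CTD (edgeR, adjusted p = 0.863) and by -0.49 on western diet (adjusted p = 0.442).

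Muscle markers were abundant in every library, at a summed 109344 to 155978 CPM, with Myh4 the most abundant of the 6. CPM are counts relative to library size after TMM scaling, and values across a group are listed in the order of its replicates. Summed counts per library ran from 21833839 to 28519159. OE-CTD 4 and OE-WD 4 lay outside the range of the other 12 libraries in several measures, with 14.9% and 14.5% of counts from mitochondrial genes against 9.66% to 12.8%. Their TMM scaling factors were 0.888 and 0.899, against 0.945 to 1.07 elsewhere, their summed muscle markers 150788 and 155978 CPM against at most 146759 CPM, and the library totals implied by their FPKM 79.9% and 80.8% of summed counts against 86.1% to 98.0%. Within the OE groups, chi-square per degree of freedom was 39.0 to 45.0 for pairs that included either of these libraries and at most 15.7 for the other pairs. It was 17.6 to 28.2 in CT-CTD and 31.4 to 52.9 in CT-WD, so the most alike pairs were those among replicates 1 to 3 of each OE group. The library names of replicates 1 to 3 of OE-CTD share an ending, as do all 4 names of OE-WD, and replicate 1 of both CT groups comes from another number series than replicates 2 and 3. CT and OE libraries have no number in common, nor do OE-CTD and OE-WD. Number series therefore cannot be told apart from genotype, or from diet within OE. The labels do not say whether a shared number means a shared animal, so the p-values measure the spread between libraries. The genotype tests of Ucp3 and Pdk4 and of the list genes past the adjusted level are also given without OE-CTD 4 and OE-WD 4, a setting chosen after seeing the data.

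Pdk4 was the most abundant of the 9 transcripts in this muscle. Levels of different genes were compared by the authors' FPKM, which are per length of gene. Over the 14 libraries, mean FPKM was 676 for Pdk4, 136 for Ucp3, 24.6 for Plin5, 21.4 for Acot2, 12.2 for Plin2, 7.38 for Ucp2, 5.87 for Ppard, 4.85 for Cpt1a and 1.97 for Acot1. Not every step in this order exceeded the spread between libraries. In CT-WD, Acot2 was at 26.6 ± 4.75 FPKM and Plin5 at 25.2 ± 5.13 FPKM (SD, n = 3), the reverse of their overall order. Ucp2 in CT-CTD ranged from 4.75 to 6.90 FPKM and so enclosed Ppard, at 5.29 to 5.63 FPKM. Ppard and Cpt1a overlapped in OE-WD, at 6.04 ± 0.605 and 5.59 ± 0.544 FPKM (SD, n = 4), and not in CT-CTD, at 5.50 ± 0.186 and 4.11 ± 0.255 FPKM (SD, n = 3). Pdk4 and Ucp3 lay above the other 7 genes in all 4 groups, with group means of 442 to 1091 FPKM for Pdk4 and 68.5 to 231 FPKM for Ucp3.

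Ucp3 and Pdk4 were lower in muscle of OE mice than of CT mice on western diet. The comparison of OE-WD with CT-WD asks what endothelial c-Myc does to muscle under a fat load. Ucp3, a mitochondrial carrier found mainly in skeletal muscle, stood at 476, 808 and 701 CPM across CT-WD and at 412, 230.4, 307 and 192 CPM across OE-WD. The groups did not overlap, although OE-WD 1 came near the lowest CT-WD library, CT-WD 1. The share of all genes whose groups do not overlap was not counted, so here and below a lack of overlap is a description only. Pdk4 stood at 3142, 3703 and 3671 CPM across CT-WD and at 2521, 1142, 1865 and 1105 CPM across OE-WD. Again no OE-WD library reached a CT-WD library, and OE-WD 1 was the highest of its group. A gene passed at an adjusted p under 0.05, over all 15458 genes, and a fold over 1.5. Ucp3 fell by 1.21 on the log2 scale (SE 0.211, 95% confidence interval -1.66 to -0.77, edgeR adjusted p = 0.0276), lower in all 4 OE-WD libraries. Pdk4 fell by 1.08 (SE 0.229, interval -1.57 to -0.59, edgeR adjusted p = 0.043), also lower in all 4. These 2 of 9 members passed, against 0.563% of all genes, and 2 of 9 had an adjusted p under 0.05 at any fold, against 0.725%. At an unadjusted p under 0.05, 3 of 9 differed, all lower in OE-WD, against 16.9% of all genes.

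Both calls on western diet changed with single libraries. For Ucp3 the adjusted p by edgeR was 0.0951 without CT-WD 2, 0.112 without CT-WD 3, 0.0883 without OE-WD 2, 0.0691 without OE-WD 3 and 0.0683 without OE-WD 4, and under 0.05 in the other 9 of 14 removals. Its log2 fold change stayed between -1.44 and -1.04 in these removals, and its adjusted p between 2.92e-06 and 0.255 over all settings but the exchange of the names CT-WD and OE-CTD, which gives 0.54 (adjusted p = 1). The call for Pdk4 by edgeR held in 4 of 14 removals, those of CT-CTD 1 (adjusted p = 0.0454), CT-WD 1 (0.0131), OE-CTD 4 (0.0484) and OE-WD 1 (0.00855). Without a library of the other genotype-diet groups, the adjusted p of Pdk4 was 0.0533 (CT-CTD 2), 0.0567 (CT-CTD 3), 0.0593 (OE-CTD 1), 0.0661 (OE-CTD 2) and 0.0647 (OE-CTD 3). Without a library of the compared groups it was 0.142 (CT-WD 2), 0.162 (CT-WD 3), 0.141 (OE-WD 2), 0.0931 (OE-WD 3) and 0.0935 (OE-WD 4). The log2 fold change of Pdk4 was between -1.35 and -0.93 in the 14 removals, and its adjusted p between 6.15e-05 and 0.255 over all settings but the exchange of names (adjusted p = 1). With OE-CTD 4 and OE-WD 4 left out together, 0 of 9 members passed by edgeR, with 4 of 9 lower at an unadjusted p under 0.05 against 9.16% of all genes, and the log2 fold changes were -1.07 for Ucp3 (adjusted p = 0.0775) and -0.93 for Pdk4 (adjusted p = 0.0889). With only the libraries of both WD groups in the model, the adjusted p was 0.158 for Ucp3 and 0.184 for Pdk4. The count of all genes passing, 87, was 905 without CT-WD 1, 13 without CT-WD 2, 7 without CT-WD 3, 53, 43 and 57 without OE-CTD 1, 2 and 3, and 4, 6 and 13 without OE-WD 2, 3 and 4.

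On control diet, Ucp3 was again lower with endothelial c-Myc. The comparison of OE-CTD with CT-CTD sets mice with the transactivator, which turns on c-Myc, against mice without it, in the absence of a fat load. Ucp3 stood at 493, 498 and 548 CPM across CT-CTD and at 227, 192, 188 and 181 CPM across OE-CTD. Every OE-CTD library was under the lowest CT-CTD library by a wide margin. The 4 OE-CTD values lay close together, and most came from libraries whose names share an ending. Ucp3 fell by 1.38 on the log2 scale (SE 0.211, 95% confidence interval -1.83 to -0.93, edgeR adjusted p = 0.00575). The call held in 14 of 14 removals of a library, with log2 fold changes of -1.46 to -1.33 and an adjusted p of 0.00175 to 0.0308 by edgeR. Without OE-CTD 4 and OE-WD 4 it was -1.35 (adjusted p = 0.0102), and over all settings but the exchange of names (0.37, adjusted p = 0.827) the adjusted p ran from 6.01e-08 to 0.0804, the highest with a replicate block.

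Pdk4 on control diet had groups that did not overlap but missed the adjusted threshold. Its libraries read 3001, 2164 and 2412 CPM across CT-CTD and 1627, 1502, 1349 and 1209 CPM across OE-CTD. All 4 OE-CTD libraries lay under the lowest CT-CTD library. The log2 fold change was -0.83 (SE 0.228, 95% confidence interval -1.32 to -0.34, edgeR adjusted p = 0.071), and -0.76 with OE-CTD 4 and OE-WD 4 left out (adjusted p = 0.0692). It passed without OE-WD 1 (adjusted p = 0.0274) or OE-WD 4 (0.0443), by DESeq2 (0.00828), with no filter on low counts (0.00131) and with only the CTD groups in the model (0.00861), and its adjusted p ran up to 0.173 over all settings but the exchange of names (0.752). Thus 1 of 9 members passed, Ucp3, against 1.91% of all genes, and the same 1 at any fold, against 2.67%, while 2 of 9 differed at an unadjusted p under 0.05, both lower, against 15.9%. Among all genes 295 passed, and the count was 99 without CT-CTD 2, 64 without CT-CTD 3, and 170, 102 and 102 without OE-CTD 1, 2 and 3. With the pair OE-CTD 4 and OE-WD 4 left out, 1 of 9 members and 339 genes passed.

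The other 7 members did not pass between genotypes. Acot2, the mitochondrial thioesterase, stood at 47.3, 49.1 and 64.2 CPM across CT-WD and at 47.2, 34.4, 41.9 and 26.4 CPM across OE-WD. OE-WD 1 and CT-WD 1 nearly met, and no OE-WD library was higher than a CT-WD library. Its log2 fold change was -0.51 (edgeR, adjusted p = 0.146), the largest after Ucp3 and Pdk4 among the 9 on western diet, with an adjusted p of 0.0307 to 0.519 over all settings but the exchange of names (adjusted p = 1). On control diet Acot2 overlapped between genotypes, at a log2 fold change of -0.16. Acot1, the cytosolic thioesterase, averaged 5.91 ± 1.29 CPM in CT-CTD (SD, n = 3) and 8.42 ± 1.86 CPM in OE-CTD (SD, n = 4), with overlap, a log2 fold change of 0.51 (edgeR, adjusted p = 0.342). Acot1 on western diet was at -0.094, and at 0.18 without CT-WD 1. For Ucp2, close kin of Ucp3 but found in many tissues, the log2 fold change was 0.30 on control diet and -0.30 on western diet (edgeR, adjusted p = 0.339 and 0.309).

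The lipid droplet genes and Cpt1a moved little with genotype. Plin2 was at 32.6 to 38.6 CPM in CT-WD and 38.9 to 41.7 CPM in OE-WD, groups that did not overlap, with a log2 fold change of 0.15 (edgeR, adjusted p = 0.39). On control diet the log2 fold change of Plin2 was 0.10. Plin5, which tethers droplets to mitochondria, had log2 fold changes of -0.13 on western diet and 0.22 on control diet (edgeR, adjusted p = 0.686 and 0.506). Cpt1a, the form of the enzyme that dominates in liver, was at 0.19 and 0.17 (edgeR, adjusted p = 0.468 and 0.552). With 1 library left out, western diet gave -0.29 to -0.028 for Plin5, 0.073 to 0.32 for Cpt1a and 0.078 to 0.20 for Plin2. On control diet the ranges were 0.065 to 0.38 for Plin5, 0.13 to 0.23 for Cpt1a and 0.046 to 0.13 for Plin2. The receptor Ppard was the most even of the 9, with log2 fold changes of -0.0098 and 0.081 and a 95% confidence interval on western diet of -0.21 to 0.19. The median log2 fold change of the 9 members was -0.13 on western diet and 0.10 on control diet, against 0.0056 and -0.00070 over all genes tested, with 7 of 9 negative on western diet and 3 of 9 on control diet.

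**Figure D1:**
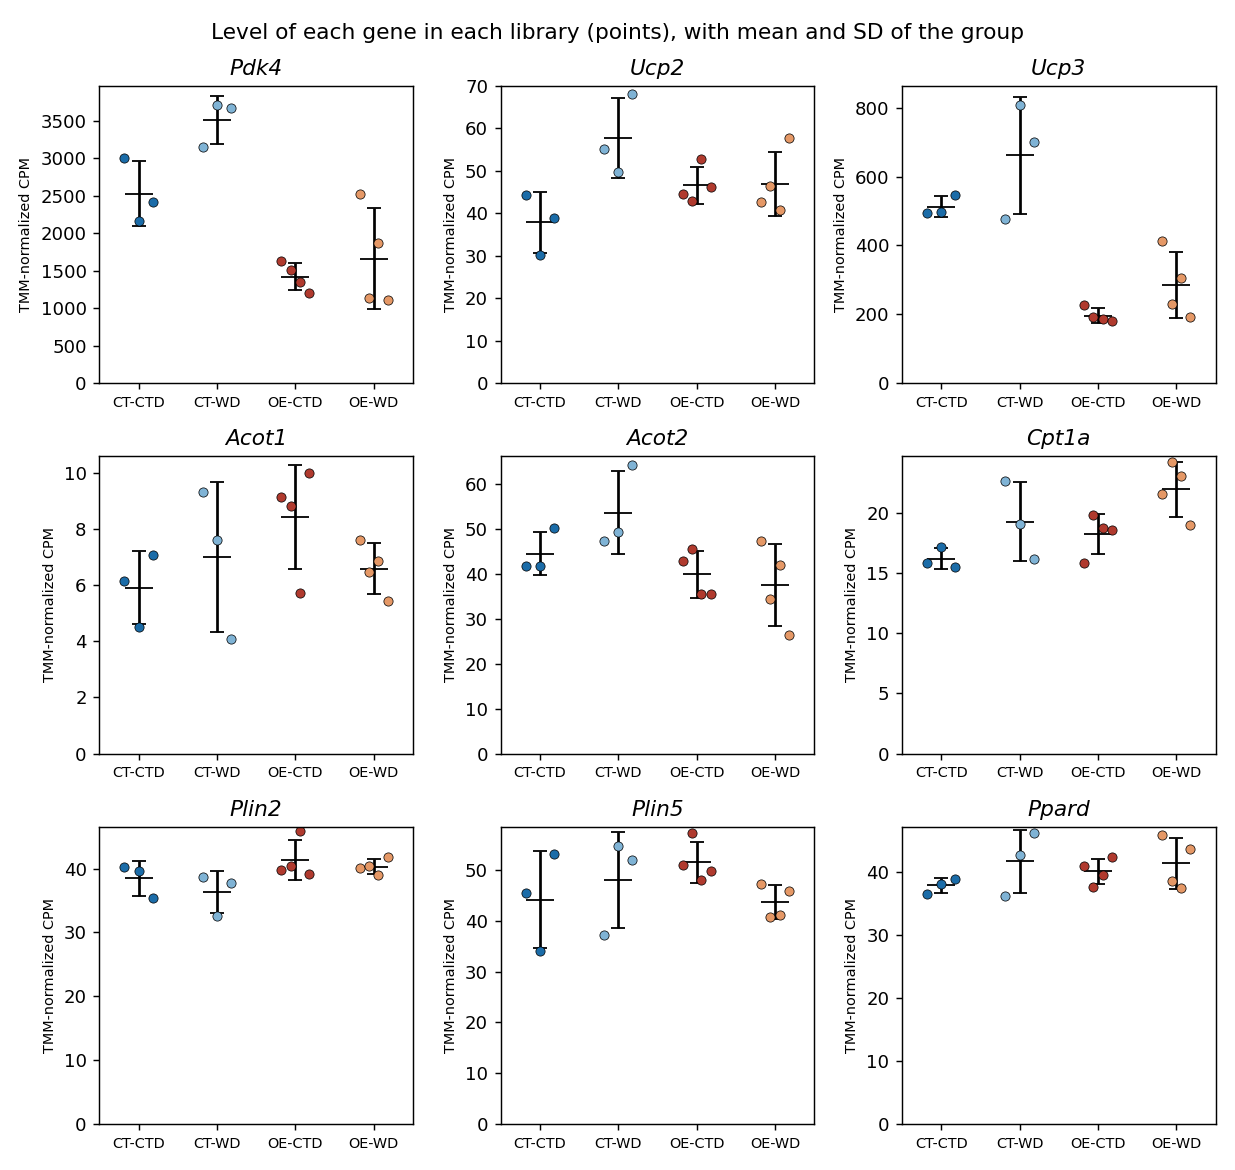
Level of each of the 9 genes in CPM (y axis) in the 14 libraries (points) of CT-CTD, CT-WD, OE-CTD and OE-WD (x axis), with the group mean (long bar) and SD (whiskers). The Ucp3 points of OE-CTD sit between 181 and 227 CPM, under all CT points, and the Pdk4 points of CT-WD sit between 3142 and 3703 CPM, above all OE points.

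In CT mice, western diet was tested as a fat load on the PPAR response, and no member passed. By edgeR 0 of 9 members passed for CT-WD against CT-CTD, as did 0% of all genes, and 0 of 9 passed by DESeq2 and by limma on log2 FPKM. At an unadjusted p under 0.05, 1 of 9 differed, against 7.28% of all genes. This was Ucp2, at 44.4, 30.2 and 39.0 CPM across CT-CTD and 55.2, 49.7 and 68.1 CPM across CT-WD. All 3 CT-WD libraries were above all 3 CT-CTD libraries. The log2 fold change of Ucp2 was 0.61 (SE 0.156, 95% confidence interval 0.28 to 0.94, edgeR, adjusted p = 0.394), and it passed only with no filter on low counts (adjusted p = 0.0197, range over all settings 0.0197 to 0.981). Pdk4 did not overlap between the diets either, with every CT-WD library above 3001 CPM, the highest of CT-CTD, at a log2 fold change of 0.47 (edgeR, adjusted p = 0.752).

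Most of the 9 had higher means on western diet in CT mice, none past the threshold. The log2 fold change was positive for 8 of 9 members and negative for Plin2 (-0.082), with a median of 0.25 against 0.0071 over all genes. Ucp3 was at 0.37, Acot2 at 0.27, Cpt1a at 0.25, Acot1 at 0.25, Ppard at 0.14 and Plin5 at 0.12, with adjusted p of 0.743 or more by edgeR. Acot1 turned to -0.022 without CT-WD 1 and Plin5 to -0.039 without CT-CTD 2. With 1 library left out, the values ran from 0.20 to 0.56 for Ucp3, 0.12 to 0.36 for Acot2, 0.12 to 0.37 for Cpt1a and 0.058 to 0.23 for Ppard. Deviations from the group means correlated at 0.385, 0.123 and 0.203 between CT libraries of the same replicate number on the 2 diets. Libraries of unlike number were not compared, so these values cannot show that replicate numbers are pairs. With replicate as a block, 0 of 9 members still passed by edgeR, with 4 of 9 higher at an unadjusted p under 0.05 against 6.32% of all genes. The block raised the count of all genes passing from 0 to 10. That count was 41 without CT-WD 1, 1 without CT-WD 2 and 3 without OE-WD 1.

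In OE mice the diet moved none of the 9 past the threshold. By edgeR 0 of 9 passed for OE-WD against OE-CTD, against 0.00647% of all genes (1 gene, or 0 without OE-CTD 1 and 2 without OE-WD 1), and 0 of 9 passed by DESeq2 and by limma on log2 FPKM. At an unadjusted p under 0.05, 2 of 9 differed, Ucp3 and Cpt1a, both higher on western diet, against 4.2% of all genes. Ucp3 had a log2 fold change of 0.54 (edgeR, adjusted p = 1), with OE-WD 1 and 3 well above the OE-CTD range, OE-WD 2 just above it and OE-WD 4 inside it. Without OE-WD 1 it was 0.31. With OE-CTD 4 and OE-WD 4 left out it was 0.65, and again 0 of 9 passed by edgeR, with 2 of 9 at an unadjusted p under 0.05 against 4.53% of all genes. Cpt1a stood at 15.8, 19.8, 18.8 and 18.6 CPM across OE-CTD and 21.6, 24.3, 23.1 and 19.0 CPM across OE-WD, with OE-WD 4 the lowest of its group and inside the OE-CTD range. Its log2 fold change was 0.27 (edgeR, adjusted p = 1). Plin5 did not overlap between the diets, at 48.0 to 57.3 CPM in OE-CTD and 40.7 to 47.4 CPM in OE-WD, a log2 fold change of -0.24 (edgeR, adjusted p = 1). Pdk4 was at 0.22 and turned to -0.053 without OE-WD 1, Ucp2 was at 0.011, Acot1 at -0.35, Acot2 at -0.088, Plin2 at -0.036 and Ppard at 0.046.

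The effect of diet was not shown to differ between genotypes for any member. In the diet by genotype interaction 0 of 9 members passed by edgeR, as did 0% of all genes, and 0 of 9 passed by DESeq2 and by limma on log2 FPKM. At an unadjusted p under 0.05, 1 of 9 differed, Ucp2, against 5.92% of all genes. Ucp2 stood at 40.9 to 57.6 CPM in OE-WD and 43.0 to 52.7 CPM in OE-CTD, while CT-WD lay above CT-CTD, and its interaction was -0.60 (edgeR, adjusted p = 0.825). For Pdk4, which passed between genotypes on western diet and missed on control diet, the interaction was -0.25 (SE 0.325, edgeR adjusted p = 0.953), so the genotype effects on the 2 diets were not shown to differ. With 1 library left out, this interaction ran from -0.53 (without OE-WD 1) to -0.098 (without OE-WD 4). For Ucp3 it was 0.17 (SE 0.300, edgeR adjusted p = 0.961), -0.020 without CT-WD 1 and -0.061 without OE-WD 1. The interaction was negative for 6 of 9 members, with a median of -0.25 against -0.0057 over all genes. Among all genes 1 passed without CT-WD 1 and 1 without CT-WD 2. The genotype and diet comparisons share libraries, so their values are not independent of each other.

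**Figure D2:**
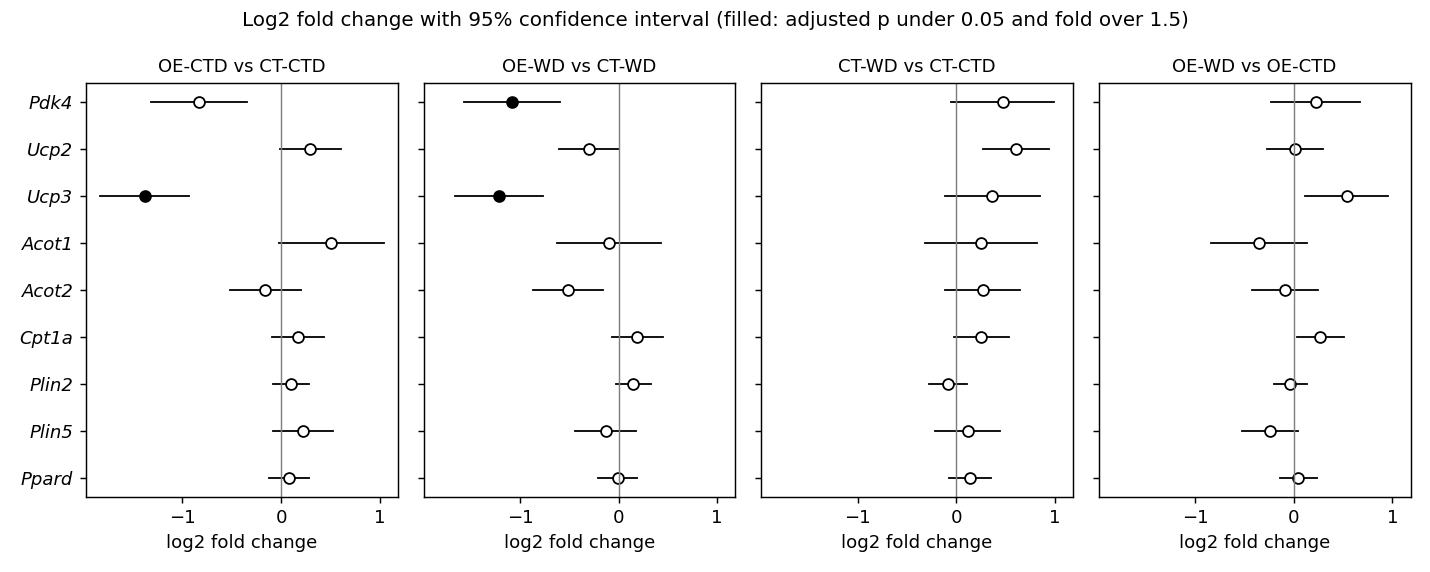
Log2 fold change (x axis) of the 9 genes (y axis) between genotypes on each diet and between diets in each genotype, with 95% confidence intervals as horizontal lines and filled points for genes with an edgeR adjusted p under 0.05 and a fold over 1.5. Filled points are Ucp3 at -1.38 on control diet and Ucp3 at -1.21 and Pdk4 at -1.08 on western diet.

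Other PPAR target genes included higher and lower genes in OE mice, and none passed. Of 28 such genes listed, 24 were tested, and Fgf21, Cyp4a10, Cyp4a14 and Creb3l3, with at most 20 counts in any library, were not. By edgeR 0 of 24 passed in any of the 5 comparisons. For OE-CTD against CT-CTD, 10 of 24 were higher and 2 lower at an unadjusted p under 0.05, against 9.22% and 6.7% of all genes. At any fold, 4 of 24 had an adjusted p under 0.05 by edgeR, against 2.67% of all genes, with a median of 0.13 over the list against -0.00070 over all genes. The counts were 7 by DESeq2 and 3 by limma on log2 FPKM, without a share of all genes to set beside them. Decr1, which prepares unsaturated fatty acids for oxidation, stood at 99.6, 101 and 128 CPM across CT-CTD and at 164, 145, 154 and 149.5 CPM across OE-CTD. No OE-CTD library was as low as a CT-CTD library. Its log2 fold change was 0.48 (edgeR, adjusted p = 0.0111). Hadha, a subunit of the trifunctional enzyme of oxidation, was at 0.36 (edgeR, adjusted p = 0.031), and Acaa2, the thiolase of the last step, at 0.41 (adjusted p = 0.0358). Vldlr, a receptor that takes up triglyceride-rich particles, was at -0.57 (edgeR, adjusted p = 0.0338).

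Each of these 4 calls was lost without single libraries of the control diet groups, while the log2 fold changes over the 14 removals were 0.42 to 0.61 for Decr1, 0.31 to 0.46 for Hadha, 0.32 to 0.56 for Acaa2 and -0.71 to -0.42 for Vldlr. Without CT-CTD 2, none of Decr1 (adjusted p = 0.0711), Hadha (0.155), Acaa2 (0.167) and Vldlr (0.185) was under 0.05 by edgeR. Hadha also missed without CT-CTD 1 (0.0971), OE-CTD 1 (0.0689), OE-CTD 2 (0.0914) or OE-CTD 3 (0.0712). Acaa2 missed without CT-CTD 1 (0.128), OE-CTD 1 (0.0765), OE-CTD 2 (0.0725), OE-CTD 3 (0.0839) or OE-CTD 4 (0.0551). Vldlr missed without CT-CTD 1 (0.0659), OE-CTD 1 (0.0832), OE-CTD 2 (0.094) or OE-CTD 3 (0.101). The replicate block also ended all 4 calls (Decr1 0.0824, Hadha 0.13, Acaa2 0.124, Vldlr 0.0874). With only the CTD groups in the model, Hadha (0.0606) and Acaa2 (0.0639) missed. Over all settings but the exchange of names the adjusted p reached 0.0824 for Decr1, 0.155 for Hadha, 0.167 for Acaa2 and 0.185 for Vldlr, from lowest values of 3.75e-05, 0.000376, 0.00313 and 0.00175, and with the exchange it was 0.97, 0.992, 0.952 and 0.992. With OE-CTD 4 and OE-WD 4 left out, Decr1 at 0.49 (edgeR, adjusted p = 0.016), Hadha at 0.37 (0.0312) and Vldlr at -0.65 (0.0286) were under 0.05. Acaa2 missed at 0.39 (0.0501).

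On western diet this list of PPAR targets again went both ways between genotypes. For OE-WD against CT-WD, 4 of 24 genes were higher and 4 lower at an unadjusted p under 0.05, against 8.44% and 8.42% of all genes, with a median of 0.02. At any fold 0 had an adjusted p under 0.05 by edgeR, against 0.725% of all genes. By DESeq2 the count was 3, without a share of all genes to set beside it. Decr1 was at 0.28, Hadha at 0.21 and Vldlr at -0.45 (edgeR, adjusted p = 0.139, 0.222 and 0.112), with every OE-WD library under every CT-WD library for Vldlr. Mlycd, which removes the malonyl-CoA that holds back Cpt1 enzymes, was at -0.43 (edgeR, adjusted p = 0.0603), and Plin4, a droplet coat protein of muscle and fat, at -0.74 (adjusted p = 0.0799). Angptl4, a secreted inhibitor of lipoprotein lipase and a widely used PPAR readout, averaged 22.5 ± 3.09 CPM in CT-CTD and 37.4 ± 8.51 CPM in CT-WD (SD, n = 3), and 22.1 ± 6.99 and 22.7 ± 8.57 CPM in OE-CTD and OE-WD (SD, n = 4). For Angptl4 the log2 fold change was 0.74 by diet in CT (edgeR, adjusted p = 0.598), -0.72 by genotype on western diet (0.187) and -0.70 in the interaction (0.857). Cpt1b, the muscle form of the Cpt1 enzymes, was at 0.56 by diet in CT and at -0.27 between genotypes on western diet (edgeR, adjusted p = 0.667 and 0.585).

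By diet no gene of the list passed. In CT, 3 of 24 genes were higher on western diet at an unadjusted p under 0.05, Angptl4, Cpt1b and Plin4, against 4.19% of all genes, with a median of 0.02 over the list. In OE, 5 of 24 were lower, against 2.27% of all genes, among them Decr1 (-0.24) and Acaa2 (-0.26), with a median of -0.11 (edgeR, adjusted p = 1 for both genes). The interaction was negative for 20 of 24 genes, with a median of -0.18 against -0.0057 over all genes, and 3 of 24 were under an unadjusted p of 0.05, against 5.92%.

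No PPAR, RXR partner or cofactor passed either. Of 14 of these tested, Ppard among them, 0 passed by edgeR in any comparison, with 1, 1, 0, 3 and 0 at an unadjusted p under 0.05 for the diet in CT, the diet in OE, the genotype on WD, the genotype on CTD and the interaction, against 7.28%, 4.2%, 16.9%, 15.9% and 5.92% of all genes. Ppara, the form that governs fatty acid oxidation in liver and heart, had group means of 1.61 to 2.45 FPKM, and Pparg, the form of fat cells, of 1.41 to 1.62 FPKM, both under Ppard. Between genotypes Ppara was at 0.39 on control diet and 0.23 on western diet, and Pparg at 0.11 and -0.20 (edgeR, adjusted p of 0.49 or more). Ppargc1a, a coactivator of mitochondrial genes, averaged 74.9 ± 13.2 CPM in CT-CTD and 147 ± 56.7 CPM in CT-WD (SD, n = 3), and CT-WD 2, at 84.1 CPM, lay inside the CT-CTD range. Its log2 fold change was 0.97 by diet in CT (edgeR, adjusted p = 0.507). On control diet the corepressor Nrip1 was at -0.73 (edgeR, adjusted p = 0.136), and the coactivators Ncoa1 and Med1 at -0.46 (0.0997) and -0.26 (0.145).

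No relative of the members by gene family passed. Of 22 relatives 17 were tested and 0 passed by edgeR in any comparison, with 2 of 17 at an unadjusted p under 0.05 between genotypes on western diet and 2 on control diet, against 16.9% and 15.9% of all genes. By diet in CT 2 of 17 were higher and 1 lower at that level, against 4.19% and 3.09% of all genes. The 2 higher genes, Cpt1b and Plin4, are those already counted in the list of PPAR targets. By diet in OE and in the interaction it was 0 of 17, against 4.2% and 5.92%. Pdk2, another pyruvate dehydrogenase kinase of muscle, had group means of 198 to 226 FPKM and log2 fold changes of 0.01 on western diet and 0.18 on control diet between genotypes (edgeR, adjusted p = 0.985 and 0.409), where Pdk4 was at -1.08 and -0.83. Plin4 had the smallest p among the relatives between genotypes, at -0.74 on western diet and -0.52 on control diet, and is also in the list of PPAR targets. Acot13 was at -0.25 on western diet and Cpt1c at 0.49 on control diet between genotypes, and Acot11 at -0.44 by diet in CT (edgeR, adjusted p = 0.247, 0.299 and 0.595). Ucp1, the uncoupling protein of brown fat, did not pass the filter on low counts, and is named after its values were seen. It reached 19.4 CPM in CT-CTD 1 and 2.84 CPM in OE-WD 1, and at most 0.126 CPM in the other 12 libraries.

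Pdk4 and Ucp3 moved together across libraries. For each member the 3 genes with the highest Pearson correlation of log2 CPM were taken from 12745 genes with a mean of at least 1 CPM. These correlations are descriptions over 14 libraries that share the differences between groups, and a value after removal of group means is given beside each. Ucp3 was the gene most like Pdk4 of all compared (r = 0.94, Spearman's rho 0.85, n = 14, r = 0.84 within groups). Pdk4 was next most like Fbxo32, a ubiquitin ligase of muscle wasting (r = 0.93, rho 0.90, 0.74 within groups), and Gm10603 (r = 0.93, rho 0.93, 0.73 within groups). Ucp3 was most like Fbxo32 (r = 0.96, rho 0.91, 0.84 within groups), then Tmpo and Myo5a (r = 0.94 for each, 0.80 and 0.64 within groups). Fbxo32 stood at 632, 629.1 and 469 CPM across CT-CTD, 539.6, 976 and 959.8 CPM across CT-WD, 303, 288, 241 and 293 CPM across OE-CTD, and 610.5, 302, 355 and 285 CPM across OE-WD. As in Ucp3 and Pdk4, OE-WD 1 was the highest library of its group and the OE-CTD libraries were low.

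Acot2 was the only other member with a correlation above 0.7 to this pair, and the rest had neighbours of their own. Acot2 correlated with Pdk4 at 0.82 (0.75 within groups) and with Ucp3 at 0.74 (0.77 within groups), and its nearest genes were 1810037I17Rik, Ugp2 and Ndufa4 (r = 0.92, 0.92 and 0.91, and 0.92, 0.92 and 0.89 within groups). Plin2 ran opposite to Ucp3 (r = -0.72, -0.47 within groups) and Pdk4 (r = -0.62, -0.17 within groups), and was nearest to Hdac11, 9330159M07Rik and Aoc3 (r = 0.91, 0.89 and 0.88, and 0.84, 0.88 and 0.79 within groups). Plin5 was nearest to Myl2, Gtf2f1 and Tnnt1 (r = 0.87, 0.84 and 0.82, and 0.88, 0.80 and 0.81 within groups), of which Myl2 and Tnnt1 are slow fibre markers. Ucp2 was nearest to Phc2, Jdp2 and Gabbr1 (r = 0.89, 0.85 and 0.84, and 0.76, 0.82 and 0.70 within groups) and Acot1 to Gm15122, Actl6a and Ppp1r3d (r = 0.84, 0.82 and 0.80, and 0.80, 0.85 and 0.79 within groups). Cpt1a was close to Abca8a and Zfp319 (r = 0.88 and 0.87, and 0.76 and 0.89 within groups), and Ppard was nearest to Naa30, Ehd1 and Slc9a3r2 (r = 0.86, 0.84 and 0.82, and 0.91, 0.80 and 0.77 within groups). All of these are over n = 14 libraries.

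Endothelial markers had a higher summed level in every OE library than in any CT library. In bulk tissue, fewer cells of a type and less RNA per cell cannot be told apart. Of 6 endothelial markers, 0 passed, and by edgeR 5 of 6 were higher at an unadjusted p under 0.05 on each diet, against 8.44% of all genes on western diet and 9.22% on control diet, with medians of 0.39 on western diet and 0.33 on control diet. At any fold 1 of 6 had an adjusted p under 0.05 on each diet by edgeR, against 0.725% of all genes on western diet and 2.67% on control diet. By DESeq2 the counts were 4 of 6 on western diet and 2 of 6 on control diet, without a share of all genes to set beside them. Cdh5, the most abundant and the gene whose promoter drives the transactivator, was at 0.46 on western diet (edgeR, adjusted p = 0.0322), and Tek at 0.52 on control diet (adjusted p = 0.0232). Both missed with a replicate block (Cdh5 0.222, Tek 0.0824), and Cdh5 missed with only the WD groups in the model (0.137). Cdh5 missed without CT-WD 2 (0.135), CT-WD 3 (0.142), OE-WD 2 (0.111), OE-WD 3 (0.0961) or OE-WD 4 (0.0683). Tek missed without CT-CTD 2 (0.111), CT-CTD 3 (0.0941), OE-CTD 1 (0.0563), OE-CTD 2 (0.0683) or OE-CTD 3 (0.0529), and over all settings but the exchange of names the adjusted p ran from 0.000368 to 0.222 for Cdh5 (1 with the exchange) and from 0.00128 to 0.111 for Tek (0.61). Over the 14 removals the log2 fold change was 0.43 to 0.51 for Cdh5 and 0.47 to 0.56 for Tek, and without OE-CTD 4 and OE-WD 4 it was 0.48 (edgeR, adjusted p = 0.0391) and 0.53 (0.0185). The summed endothelial level was 263, 271 and 284 CPM across CT-CTD, 307, 264 and 278 CPM across CT-WD, 351.2, 354, 325 and 325 CPM across OE-CTD, and 353, 381, 358 and 376 CPM across OE-WD. OE libraries started at 325 CPM where CT libraries ended at 307 CPM, and the part of this in the results for Ucp3 and Pdk4 was not tested.

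Macrophage, fat cell and fibre markers were compared in the same way, and by edgeR 0 of 6 passed in each of these lists in every comparison. Of the macrophage markers, most abundant in Csf1r, 5 of 6 were higher in OE-CTD than CT-CTD at an unadjusted p under 0.05 (9.22% of all genes), with a median of 0.88 and C1qa at 0.88 (edgeR, adjusted p = 0.0724), and 0 of 6 differed on western diet, with a median of 0.19. Their summed level was 43.2, 27.8 and 22.2 CPM across CT-CTD, 68.5, 32.3 and 28.3 CPM across CT-WD, 42.0 to 66.4 CPM in OE-CTD and 41.5 to 72.6 CPM in OE-WD. Replicate 1 of each CT group was the highest of its group. The fat cell markers, most abundant in Cfd, summed to 183, 86.7 and 45.8 CPM across CT-CTD, 144, 41.2 and 23.2 CPM across CT-WD, 42.9 to 122 CPM in OE-CTD and 58.8 to 108 CPM in OE-WD. Again replicate 1 led both CT groups. By diet in CT the list medians were -0.98 for fat cells and 0.54 for macrophages, with 0 and 1 of 6 at an unadjusted p under 0.05 by edgeR, against 7.28% of all genes. At an unadjusted p under 0.05, 1 of 6 differed between genotypes on western diet, Lep at 2.55 (edgeR, adjusted p = 0.114), with a list median of 0.65, and 2 of 6 on control diet, Lep at 1.95 and Cfd at -1.34 (adjusted p = 0.154 and 0.229), against 16.9% and 15.9% of all genes. On control diet the other 5 fat cell markers were all negative, with a list median of -0.19.

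Fibre type is known to vary with oxidative genes, and 6 of 6 slow fibre markers had higher means in OE-CTD than CT-CTD, none past the threshold. Slow fibre markers, most abundant in Myh7, had a median of 0.24 on control diet and -0.04 on western diet between genotypes, with 2 of 6 higher at an unadjusted p under 0.05 on control diet (Myl2 and Myl3, at 0.32 each) and 1 of 6 on western diet (Myh7 at 0.50), against 9.22% and 8.44% of all genes. In the interaction 2 of 6 were lower, Tnnt1 at -0.48 and Myl2 at -0.34 (edgeR, adjusted p = 0.834 and 0.843), against 3.34% of all genes, with a list median of -0.30. Their summed level was 2889 to 3969 CPM in CT-CTD, 3199.8 to 3876 CPM in CT-WD, 3783 to 4525 CPM in OE-CTD and 3328 to 4155 CPM in OE-WD, and the 2 highest libraries were OE-CTD 4 and OE-WD 4. Fast fibre markers, most abundant in Myh4, had medians of -0.01 and -0.10, with 1 of 6 lower on western diet (Tnni2 at -0.29), against 8.42% of all genes. Their summed level was 85124 to 95442 CPM in CT-CTD, 81257 to 103280 CPM in CT-WD, 74738, 71547, 76046 and 102486 CPM across OE-CTD, and 82155, 80384, 76600 and 107865 CPM across OE-WD. OE-CTD 1 to 3 lay under all CT libraries and OE-CTD 4 above all of CT-CTD. Of the 6 general muscle markers, Mb alone was higher on control diet at an unadjusted p under 0.05 (0.27), against 9.22% of all genes, with medians of 0.01 on control diet and -0.08 on western diet. The part of the macrophage, fat cell and fibre markers in the results for the 9 genes was not tested.

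Several of the 9 genes lie close to each other or to a relative. Coordinates are of build GRCm38 as the count table lists them. Ucp3 (ENSMUSG00000032942, chromosome 7, 100472990 to 100486432) ends 6904 bases before Ucp2 (ENSMUSG00000033685, 100493337 to 100502020) on the plus strand, and Ucp3 fell while Ucp2 did not pass. Acot2 (ENSMUSG00000021226, chromosome 12, 83987861 to 83993873) ends 15616 bases before Acot1 (ENSMUSG00000072949, 84009490 to 84018371). Of 100-base windows of their exons, 12.4% in Acot1 and 17.1% in Acot2 also occur in other Acot genes, where a read cannot be assigned to 1 gene. In Plin2 0.115% of windows also occur in Gm12551, and in the other 6 members none occur in another gene. Pdk4 (ENSMUSG00000019577) lies on chromosome 6 from 5483351 to 5496309, Cpt1a (ENSMUSG00000024900) on chromosome 19 from 3323301 to 3385732, and Plin2 (ENSMUSG00000028494) on chromosome 4 from 86648386 to 86670060. Plin5 (ENSMUSG00000011305, 56111601 to 56117596) and Ppard (ENSMUSG00000002250, 28232700 to 28301474) are both on chromosome 17.

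Ucp3 is overlapped on the opposite strand by the antisense gene Gm10603, which averaged 4.29 CPM. Gm10603 stood at 5.85, 2.97 and 5.76 CPM across CT-CTD, 5.86, 7.73 and 9.60 CPM across CT-WD, 3.26, 2.18, 3.01 and 2.60 CPM across OE-CTD, and 3.54, 2.10, 3.62 and 2.01 CPM across OE-WD. All 8 OE libraries were at 3.62 CPM or less, as was CT-CTD 2 among the CT libraries. The strand setting of the counting is not stated, so an antisense transcript and Ucp3 reads counted on the other strand cannot be told apart. Ucp2 is overlapped by Dnajb13, which was not tested, and the other 7 members by no gene.

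PPARs with their RXR partner are known to bind direct repeats of the bases AGGTCA spaced by a single base. Promoter windows of 300 bases, 250 of them before the gene's start, were taken from RefSeq on build GRCm38.p6, and 9 of 9 members matched, with 10 windows because Plin5 has 2. The repeat AGGTCANAGGTCA, searched on both strands, was in 0 of 9 members and in 0.0396% of 32851 promoters. The looser AGGNCANAGGNCA was also in 0 of 9 members, and in 0.381% of promoters. The lone element AGGTCA, which lies inside the first repeat, was found in 4 of 9 members, Ucp3, Plin2, Plin5 and Cpt1a, and in 16.3% of promoters. The part before the gene's start in the count table is shown for Ucp3 and Pdk4, the members that fell together, 5′ to 3′ on the gene's strand with each AGGTCA in capitals. Ucp3 is chr7:100472741-100472989 on the plus strand, with 2 matches, and Pdk4 is chr6:5496310-5496528 on the minus strand, with none.
Ucp3: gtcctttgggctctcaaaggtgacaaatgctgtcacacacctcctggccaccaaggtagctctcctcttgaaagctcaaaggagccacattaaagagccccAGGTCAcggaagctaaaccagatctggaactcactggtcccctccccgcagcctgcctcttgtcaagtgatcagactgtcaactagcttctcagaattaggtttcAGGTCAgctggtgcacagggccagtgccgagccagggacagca
Pdk4: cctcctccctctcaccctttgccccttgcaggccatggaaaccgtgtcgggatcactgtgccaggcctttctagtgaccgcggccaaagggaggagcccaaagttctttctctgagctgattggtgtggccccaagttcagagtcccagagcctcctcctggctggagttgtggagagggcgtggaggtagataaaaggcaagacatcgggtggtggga
A match is a description, not a site or a cause, and no match says only that these letters are not in this window.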

How the data were processed

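RNA-seq counts and FPKM of mouse skeletal muscle were used, in 14 libraries grouped by their labels. The authors deposited counts, whole numbers of reads per Ensembl gene without normalization. According to the submitters' notes, reads were aligned to mm10 with HISAT2 2.0.5 and counted with featureCounts 1.5.0-p3. FPKM values were deposited by the authors too, with each count divided by gene length and by a library total that was 79.9% to 98.0% of the summed counts.

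The test was that of edgeR 4.0.16 under R 4.3.3 (TMM normalization, filterByExpr, quasi-likelihood test, a mean for each of 4 groups). P-values were adjusted over 15458 genes by the Benjamini-Hochberg method, and intervals are 95%. Summed counts of 21833839 to 28519159 per library and a biological coefficient of variation of 17.0% set the precision. Of 54409 identifiers shared with GENCODE M21, 98.3% had the same coordinates. The tools were tested on simulated data.

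Alternatives were RLE scaling, DESeq2 1.42.0, no filter, 2 groups alone, a replicate block, limma 3.58.1 on log2 FPKM with 1 or 0.1 added, and removal of each library. Another was a swap of the labels CT-WD and OE-CTD, because the group sizes stated in the study differ from the labels and would be met by this swap. Chosen after seeing the data, OE-CTD 4 and OE-WD 4 were left out together. The genes named are the 9 members, list genes past the adjusted level or else up to 4 with the smallest p, 5 pathway genes (Ppara, Pparg, Ppargc1a, Angptl4, Cpt1b), and the 3 genes most like each member, of which 1 is not reported here. The members and lists were chosen with earlier results of these data known.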

Additional observations from a re-analysis of the deposited data

How the results depend on the processing

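The fall of Ucp3 on control diet passed in each of the 14 removals of a library and in every other setting but the replicate block and the exchange of names, and the calls on western diet changed with several settings. In what follows, diet in CT means CT-WD against CT-CTD, diet in OE the same for OE libraries, and genotype on WD or CTD means OE against CT. For genotype on WD, where 2 members passed, the number was 0 with only 2 groups in the model, 0 with a replicate block, 1 by limma on log2(FPKM + 1), 1 on log2(FPKM + 0.1), 0 with OE-CTD 4 and OE-WD 4 left out together (chosen after seeing the data), and 0 to 2 with 1 library left out. For genotype on CTD, where 1 passed, it was 2 by DESeq2, 2 with no filter, 2 with only 2 groups in the model, 0 with a replicate block and 1 to 2 with 1 library left out. For diet in CT, where edgeR passed 0 and 1 was under an unadjusted p of 0.05, it was 1 with no filter and 0 by DESeq2. The cause was not tested. The block took all genes passing to 1 for genotype on WD and 14 for genotype on CTD, and DESeq2 took them to 308 and 504. The numbers of members for no filter, 2 groups alone and limma are given without a share of all genes to set beside them. Leaving out a library leaves fewer libraries to estimate the spread.

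Summed endothelial markers were 325 to 354 CPM in OE-CTD, 353 to 381 CPM in OE-WD, 264 to 307 CPM in CT-WD and 263 to 284 CPM in CT-CTD. By this measure OE-CTD lay nearer OE-WD and CT-WD nearer CT-CTD. With the names exchanged, the same split would lie between diets in place of genotypes, so this measure cannot tell which names are right. Swapping the names of CT-WD and OE-CTD, by construction, swaps diet in CT with genotype on CTD and diet in OE with genotype on WD. The members passing became 1 for diet in CT, 2 for diet in OE, 0 for genotype on WD and 0 for genotype on CTD. Log2 fold changes turned for diet in CT in Pdk4 (-0.83), Ucp3 (-1.38), Acot2 (-0.16) and Plin2 (0.10), and for diet in OE in Pdk4 (-1.08), Ucp2 (-0.30), Ucp3 (-1.21), Plin2 (0.15) and Ppard (-0.0098). They turned for genotype on WD in Pdk4 (0.22), Ucp2 (0.011), Ucp3 (0.54), Plin2 (-0.036) and Ppard (0.046), and for genotype on CTD in Decr1 (-0.036), Pdk4 (0.47), Ucp3 (0.37), Acot2 (0.27) and Plin2 (-0.082).

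Other values changed sign elsewhere, some near 0 and some not, and the cause was not tested. Those further from 0 in the main fit included Acot1 for diet in CT (0.25), Pdk4 for diet in OE (0.22) and the interaction of Ucp3 (0.17). Acot1 for genotype on WD was 0.052 with the block, and Ucp2 for diet in OE was -0.11 without OE-CTD 4 and OE-WD 4. With 1 library left out, diet in CT gave -0.039 to 0.27 for Plin5 and -0.022 to 0.52 for Acot1. Diet in OE gave -0.10 to 0.080 for Ucp2, -0.060 to 0.023 for Plin2, -0.053 to 0.37 for Pdk4, -0.0069 to 0.093 for Ppard and -0.22 to 0.048 for Acot2. Genotype on WD gave -0.37 to 0.18 for Acot1 and -0.10 to 0.069 for Ppard, and the interaction gave -0.099 to 0.15 for Cpt1a, -0.061 to 0.34 for Ucp3 and -0.026 to 0.10 for Plin2. With 1 library left out, 648 log2 fold changes kept their direction and side of the threshold, 42 lost the call, 2 gained it and 22 changed sign, and all 51 kept both with RLE scaling.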
